A study of Homo sapiens with 6 samples.

Results

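HFM1 and 4 of its neighbours on the short arm of human chromosome 1, CDC7, TGFBR3, ZNF644 and BRDT, were taken by gene symbol from a table of gene levels and make up 5 of its 58233 gene rows. HFM1 was chosen because its level was very high and was higher in the libraries labelled siSTRN3, so its level and its change are given as a description with no test. The neighbours were chosen by position, and their tests come from a fit over all rows that passed a filter on low values. 4 of the 5 members passed that filter, and BRDT did not.

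The table came from HGC-27, an established line of human gastric cancer cells described as undifferentiated, grown in RPMI medium with 10% FBS. Cells received a mixture of siRNAs against STRN3 (siSTRN3) or a negative control siRNA (siNC) with a lipid reagent, and both groups were harvested after 72 h. Each group had 3 libraries, and both groups share the parental line, the medium and the transfection. STRN3 encodes a striatin, a scaffold subunit of the STRIPAK phosphatase and kinase complex.

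HFM1 is a DNA helicase of the Ski2-like family that is needed for the formation of crossovers between homologous chromosomes in meiosis, and its messenger RNA is known mainly from germ cells of testis and ovary. CDC7 is the kinase that, with its activator DBF4, fires replication origins. TGFBR3 (betaglycan) is a coreceptor that presents TGF-beta ligands, ZNF644 is a zinc finger partner of the histone H3K9 methyltransferases EHMT1 and EHMT2, and BRDT is the testis member of the BET family of acetyl-lysine readers. The structural RNAs set beside HFM1 here are the 5.8S ribosomal RNA and RN7SK, the noncoding RNA that holds the elongation kinase P-TEFb inactive.

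Levels are in TPM, which divides by gene length and scales every library to one total, and which does not keep the number of reads, so depth is unknown. TPM totals over the gene rows ran from 966433 to 968756 in the libraries labelled siSTRN3 and from 985805 to 987429 in those labelled siNC. STRN3, the target of the siRNAs, showed no decrease: it had 4.76, 5.0 and 5.56 TPM in the libraries labelled siSTRN3, against 3.51, 5.30 and 3.85 TPM in those labelled siNC (exact 2-sided permutation p = 0.3, where the smallest p for 3 against 3 is 0.1). The median log2 fold change of the 13004 tested rows was -0.57 on the deposited scale, so changes are given relative to the median gene, after each library was rescaled to the same median, unless the deposited scale is named. On that scale 21.3% of tested rows passed an adjusted p under 0.05, 11.0% higher and 10.4% lower, against 81.8% on the deposited scale. Relative to the median gene STRN3 was higher in the libraries labelled siSTRN3. Its log2 fold change was 0.77 ± 0.13 (SE, adjusted p = 0.0089, limma). The groups did not overlap on that scale, as in 42.4% of tested rows. The targeted gene thus goes against the labels, whether the labels are exchanged cannot be told from these values, and every direction below is that of libraries as labelled. Whether the 3 libraries of a group are separate cultures is not given in the labels, and the p-values cover no more than their spread, possibly a technical one.

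The sequences that were compared with HFM1 transcripts are shown first, from GENCODE release 29 (GRCh38), each written 5′ to 3′. The 5.8S ribosomal RNA is shown because the table's highest rows hold it or lie around it, and the capitals mark its longest stretch, bases 58 to 65 of 153, that is also found on the same strand of an HFM1 transcript.
RNA5-8SN2, chr21:8212572-8212724, plus strand: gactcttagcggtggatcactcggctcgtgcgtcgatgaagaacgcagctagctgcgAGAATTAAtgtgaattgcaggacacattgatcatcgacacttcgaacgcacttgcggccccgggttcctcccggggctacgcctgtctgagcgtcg
The shared run was 8 bases long. CDC7, TGFBR3, ZNF644 and BRDT each shared a longer run with 5.8S, of 10 bases, so nothing is read from the run in HFM1. The longest run that HFM1 shared with any of 14 structural RNAs was 14 bases, with the mitochondrial ribosomal RNA MT-RNR2, and CDC7 shared a run of the same length with it. A blastn search found 0 matches of these RNAs in the 9 annotated HFM1 transcripts at an e-value of 0.001. The 14 were 5.8S, RN7SK, RN7SL1, RN7SL2, RMRP, RPPH1, MT-RNR1, MT-RNR2 and genes around 5.8S whose names begin with FP671120 or FP236383. None was named as the large- or small-subunit ribosomal RNA of the cytosol, so the 0 matches are not read for those RNAs. The same search gave 7 matches of FP671120.1 in TGFBR3 transcripts and 25 in BRDT transcripts. The introns of HFM1 were not searched, because no genome sequence was used here. As background, an intron of HFM1 is known to hold a stretch like the large-subunit ribosomal RNA, a region listed among those with excess signal in sequencing, and its part in the values below was not tested.

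The only other genes that matched an HFM1 transcript were FEN1, the nuclease that trims Okazaki fragments, and its pseudogene FEN1P1, which lies inside HFM1 on the opposite strand. The match falls in a noncoding HFM1 transcript of 383 bases and 5 exons, and it is shown because reads from FEN1 could be counted there if strand was not used. Capitals mark the 5 bases that differ between both sequences, and the 101 bases of FEN1 are all coding.
HFM1 noncoding transcript, bases 1 to 101, transcript chr1:91316140-91328937, minus strand: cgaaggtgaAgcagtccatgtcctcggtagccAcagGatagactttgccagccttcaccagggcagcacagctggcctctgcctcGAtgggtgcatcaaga
FEN1, bases 869 to 969 reverse complemented, gene chr11:61792637-61797244, plus strand: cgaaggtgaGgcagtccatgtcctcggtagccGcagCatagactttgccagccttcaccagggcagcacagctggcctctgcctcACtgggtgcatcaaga
The 2 sequences were 95.05% identical, and FEN1P1 matched the same transcript over 100 bases at 100% identity. FEN1 had 71.63, 72.78 and 71.17 TPM in the libraries labelled siSTRN3, against 97.33, 98.70 and 99.51 TPM in those labelled siNC. Those levels lay below the HFM1 value of every library, and on the deposited scale FEN1 was lower in the libraries labelled siSTRN3. Relative to the median gene FEN1 was called higher, with a log2 fold change of 0.19 ± 0.032 (SE, adjusted p = 0.0089, limma). Whether reads from FEN1 added to the HFM1 values was not tested. FEN1P1 was listed at 0 in all 6 libraries.

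HFM1 (ENSG00000162669.15, GRCh38 chr1:91260766-91404869, minus strand) spans 144104 bases, of which 3.42% lie in the 39 exons of its longest transcript. The length given for it in the table, 4931 bases, is that of this transcript. Its level was 2031.54, 2669.13 and 1130.07 TPM in the libraries labelled siSTRN3, against 786.16, 823.66 and 454.95 TPM in those labelled siNC. The groups did not overlap, as in 83.3% of tested rows on the deposited scale. The lowest library labelled siSTRN3 stood 1.37 times above the highest labelled siNC. The means were 1944 ± 773 TPM in the libraries labelled siSTRN3 and 688 ± 203 TPM in those labelled siNC (SD, n = 3 each), a ratio of 2.82. Relative to the median gene the log2 fold change was 2.11 ± 0.36 (SE), a 4.31-fold difference, and on the deposited scale it was 1.46 ± 0.35. By its mean over all libraries 108 of the 58233 rows stood above HFM1, 92 of them among the 19413 protein-coding rows.

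**Figure D1:**
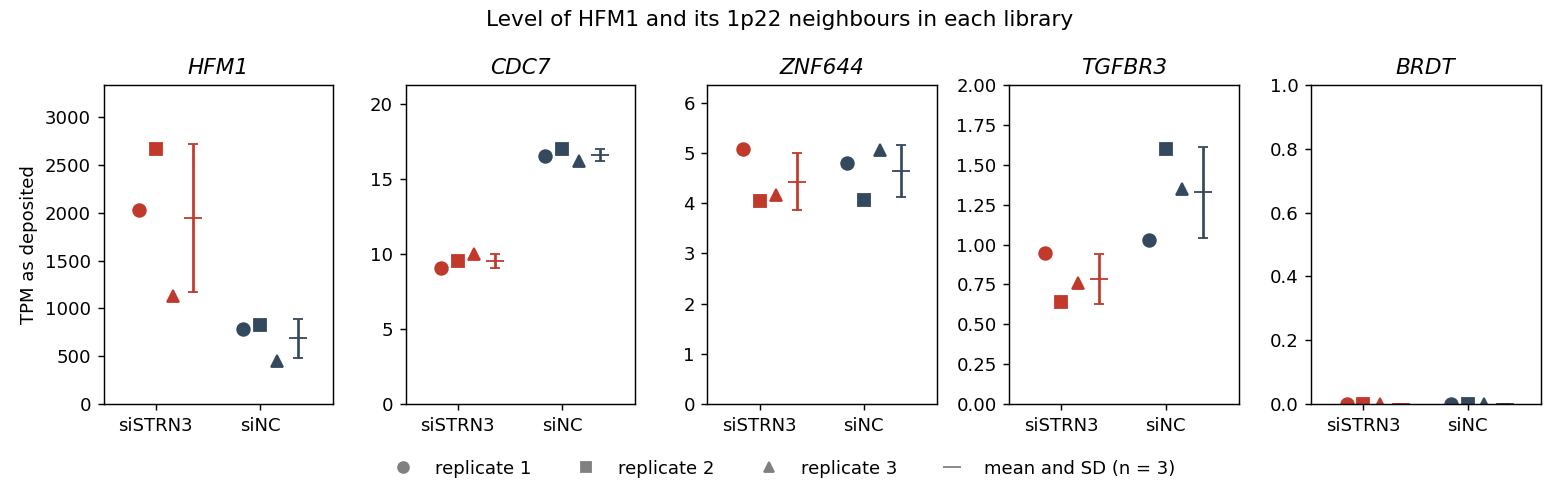
The y axes give TPM as deposited for each member, on a scale of its own, with the libraries labelled siSTRN3 on the left and those labelled siNC on the right; points are single libraries, their shape is the replicate number, and the dash and bar are the mean and SD (n = 3). HFM1 lies between 454.95 and 2669.13 TPM, CDC7 between 9.11 and 17.03 TPM, and BRDT at 0 in every library.

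Libraries of one group differed in HFM1 by more than they did in most genes. The highest library was 2.36 times the lowest among those labelled siSTRN3 and 1.81 times the lowest among those labelled siNC. In both groups replicate 2 was the highest and replicate 3 the lowest, although the replicate numbers do not pair the libraries across the other genes. Over the 8361 rows with a mean of at least 5 TPM, the SD within groups of log2(TPM + 1) had a median of 0.0822, and that of HFM1 was 0.564, at percentile 98.6. Among the 814 rows with a mean of at least 100 TPM, 8 had a larger SD than HFM1.

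Structural RNAs were also higher in the libraries labelled siSTRN3. The 7 rows named RNA5-8S5, summed, held 214525, 213600 and 208560 TPM there, against 86517, 80294 and 84324 TPM in the libraries labelled siNC, a ratio of means of 2.54. Of these rows 3 passed the filter, and the other 4 were above 0 only in siNC replicate 2. RN7SK had 1747.78, 1765.15 and 1707.53 TPM in the libraries labelled siSTRN3, against 760.71, 571.79 and 661.13 TPM in those labelled siNC, a ratio of 2.62. In neither RNA did the groups overlap, as in 83.3% of tested rows on the deposited scale. Both ratios were close to the 2.82 of HFM1. Rows around the 5.8S genes on chromosome 21 mostly showed the same order. FP671120.1, which carries a 5.8S gene in an annotated intron, had 115709, 115062 and 110077 TPM in the libraries labelled siSTRN3, against 48776, 43404 and 45843 TPM in those labelled siNC. FP236383.2 went the other way on the deposited scale, with 0, 0 and 92.08 TPM in the libraries labelled siSTRN3, against 321.24, 539.81 and 64.89 TPM in those labelled siNC, and its groups overlapped. The ratio of means was 2.37 for RMRP, the RNA of the nuclease RNase MRP, summed over its rows, and 2.09 for RPPH1, the RNA of RNase P. It was 1.59 for RN7SL1 and 1.43 for RN7SL2, the RNAs of the signal recognition particle, and 1.32 for MT-RNR2.

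Set against 5.8S or RN7SK within each library, HFM1 differed between groups by less than the spread within them. The log2 ratio of HFM1 to summed RNA5-8S5 was -6.72, -6.32 and -7.53 in the libraries labelled siSTRN3, against -6.78, -6.61 and -7.53 in those labelled siNC. The groups overlapped, with means of -6.86 ± 0.614 in the libraries labelled siSTRN3 and -6.97 ± 0.493 in those labelled siNC (SD, n = 3 each), a difference of 0.12. Against RN7SK the log2 ratio was 0.22, 0.60 and -0.60 in the libraries labelled siSTRN3 and 0.047, 0.53 and -0.54 in those labelled siNC, a difference of 0.061. Against summed RMRP the difference was 0.16 and against RPPH1 it was 0.39, again with overlapping groups. It was 0.78 against RN7SL1, 0.94 against RN7SL2 and 1.06 against MT-RNR2, and only in the last, among the 9 denominators set against HFM1, did the groups not overlap. The sign of the difference against RNA5-8S5 rested on single libraries, since it was -0.15 without siSTRN3 replicate 2 and -0.16 without siNC replicate 3.

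**Figure D2:**
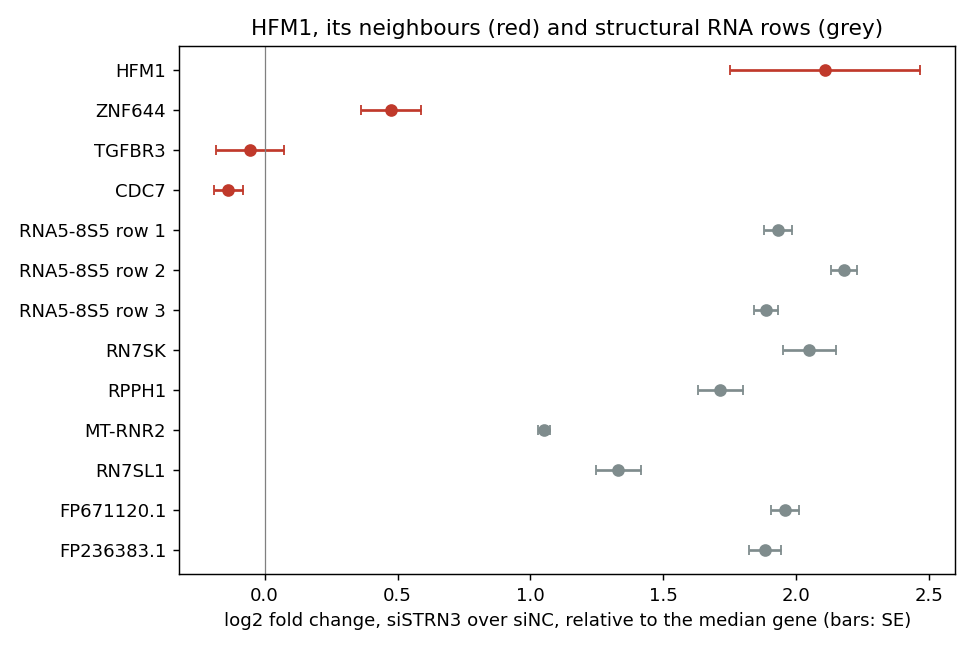
The x axis gives the log2 fold change, siSTRN3 over siNC as labelled, relative to the median gene, for HFM1 and its tested neighbours (red) and for structural RNA rows (grey); bars are SE. HFM1 at 2.11 stands beside RN7SK at 2.05 and the RNA5-8S5 rows at 1.93, 2.18 and 1.88, while the neighbours lie between -0.14 and 0.48. The other structural rows drawn are FP671120.1 at 1.96, FP236383.1 at 1.88, RPPH1 at 1.71, RN7SL1 at 1.33 and MT-RNR2 at 1.05.

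From library to library within a group, HFM1 varied more than 5.8S and RN7SK did. Summed RNA5-8S5 varied 1.03-fold among the libraries labelled siSTRN3 and 1.08-fold among those labelled siNC, and RN7SK varied 1.03-fold and 1.33-fold in the same order. RMRP, summed over its rows, varied 1.16-fold among the libraries labelled siSTRN3 and 1.98-fold among those labelled siNC, above the 1.81-fold of HFM1 there. Its main row had 183.59, 123.51 and 155.36 TPM in the libraries labelled siNC. The SD within groups of that row was 0.227, against 0.564 for HFM1. The second row named RMRP added 61.16, 0 and 0 TPM in the libraries labelled siNC. That row and FP236383.2, each at 0 in some libraries, had a larger SD within groups than HFM1. Over the 6 deviations from the group means, the correlation with HFM1 was 0.12, 0.0094 and -0.088 for the 3 tested rows of RNA5-8S5 and 0.088 for RN7SK. It was 0.66 for FP671120.3, 0.51 for FP236383.3 and 0.45 for RNA5-8S4, and -0.51 for FP236383.2. The other structural rows lay between -0.14 for MT-RNR1 and 0.32 for FP671120.1. Over the 8360 other rows with a mean of at least 5 TPM the median was 0.0045, and 1.65% had 0.9 or more. These points are 6 libraries from 2 groups and share their totals, so the values are a description.

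**Figure D3:**
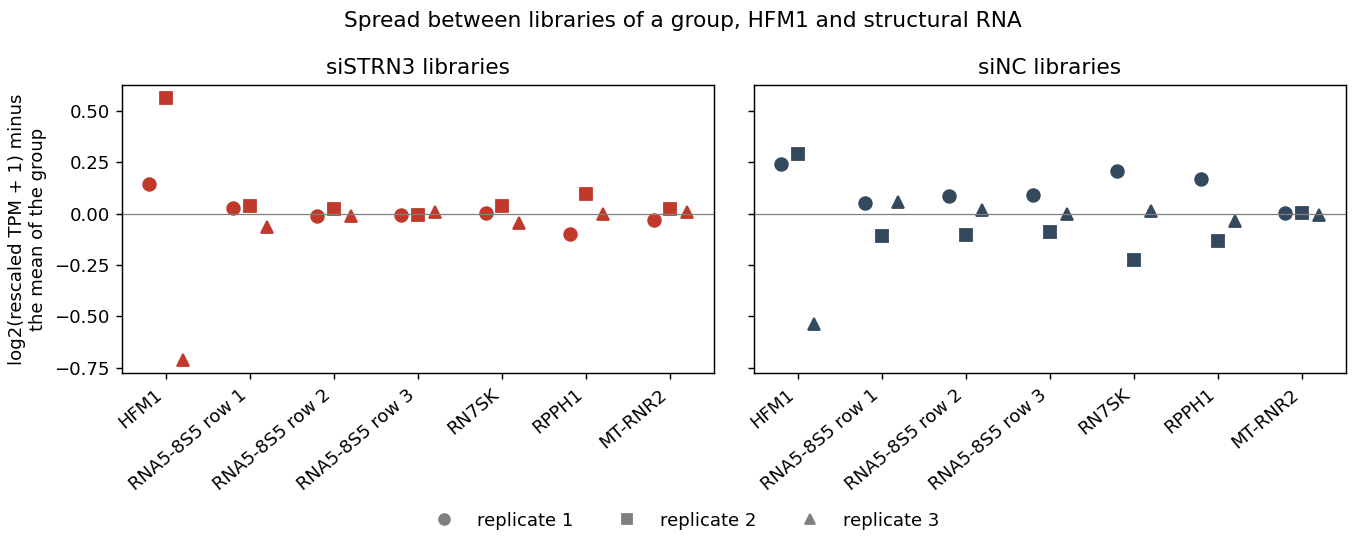
The y axis gives log2(rescaled TPM + 1) minus the mean of the library's group, for HFM1, 3 RNA5-8S5 rows, RN7SK, RPPH1 and MT-RNR2, with the libraries labelled siSTRN3 on the left and those labelled siNC on the right; shapes are replicate numbers. HFM1 has the widest spread of the genes drawn, with replicate 3 lowest and replicate 2 highest in both panels.

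The 5 genes most like HFM1 by each of 2 correlations were not structural RNAs. Over all 6 libraries the highest Pearson correlations on log2(TPM + 1), relative to the median gene, were 0.997 for SPEG, 0.994 for NRBF2, 0.992 for DLX4, 0.992 for CBWD3 and 0.991 for AL391244.1. For deviations from the group means they were 0.998 for CANT1, 0.989 for MED22, 0.989 for UBQLN1, 0.988 for TSPYL1 and 0.988 for RACGAP1. The 2 sets of 5 shared 0 genes. Over 6 points such values are common, and 463 of the 8360 rows (5.54%) had a correlation of 0.9 or more over the 6 libraries. The SD within groups of these 10 genes was at most 0.119 on the log2 scale, against 0.564 for HFM1, so their differences between libraries were far smaller. Most structural rows were also at 0.9 or more over the 6 libraries, a measure that includes the difference between groups. The correlation was 0.914 for RN7SK, 0.918, 0.915 and 0.913 for the tested RNA5-8S5 rows, and 0.940 for FP671120.3. Below 0.9 lay RN7SL1 at 0.899, the second RMRP row at 0.58 and FP236383.2 at -0.81.

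None of the neighbours had a level or a difference like that of HFM1. CDC7 (chr1:91500893-91525764, plus strand) begins 96.0 kb beyond the upstream end of HFM1 and was the highest of them. It had 9.11, 9.52 and 10.04 TPM in the libraries labelled siSTRN3, against 16.55, 17.03 and 16.23 TPM in those labelled siNC, with means of 9.56 ± 0.466 and 16.6 ± 0.403 TPM in the same order (SD, n = 3 each). The groups did not overlap, as in 83.3% of tested rows on that scale. Relative to the median gene they also did not overlap, as in 42.4% of rows, and CDC7 did not pass the threshold, with a log2 fold change of -0.14 ± 0.053 (SE, adjusted p = 0.119, limma). On the deposited scale it was lower, at -0.74 (adjusted p = 2.83e-05, limma), and among protein-coding rows alone it was also called lower, at -0.19 (adjusted p = 0.0435, limma).

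ZNF644 (chr1:90915298-91022272, minus strand) lies 238 kb beyond the other end of HFM1. It had 5.08, 4.04 and 4.16 TPM in the libraries labelled siSTRN3, against 4.80, 4.06 and 5.05 TPM in those labelled siNC, and the groups overlapped. Relative to the median gene it had 6.35, 5.13 and 5.16 in the libraries labelled siSTRN3, against 3.84, 3.20 and 4.07 in those labelled siNC. The groups did not overlap on that scale, as in 42.4% of tested rows. There ZNF644 rose, with a log2 fold change of 0.48 ± 0.11 (SE, adjusted p = 0.0271, limma). It was 1 called neighbour among 3 tested, where 11.0% of all tested rows were called higher and 10.4% lower. The call and its direction rested on the scale, since the deposited values gave -0.056 (adjusted p = 0.649, limma). The call also ended without siSTRN3 replicate 1 and without each of the 3 siNC libraries in turn, with adjusted p between 0.0511 and 0.0802 in those limma fits.

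TGFBR3 (chr1:91680343-91906335, minus strand) stood near the lower limit of the tested rows. It had 0.95, 0.64 and 0.76 TPM in the libraries labelled siSTRN3, against 1.03, 1.60 and 1.35 TPM in those labelled siNC, so it passed the filter through the siNC libraries. The groups did not overlap on the deposited scale, as in 83.3% of tested rows, and overlapped relative to the median gene. Relative to the median gene the log2 fold change was -0.054 ± 0.13 (SE, adjusted p = 0.797, limma). On the deposited scale it was -0.38, and no call is read from it, since the group in which the gene was higher let it through the filter. BRDT (chr1:91949371-92014426, plus strand) was listed at 0 in all 6 libraries.

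In the authors' deposited table the adjusted p was 0.0001312 for ZNF644, 0.1257 for CDC7, 0.8506 for TGFBR3 and 1 for BRDT. The authors' deposited table marks 57 rows as significant and none of the 5 members, HFM1 included, and 4208 rows marked no carry an authors' adjusted p under 0.05.

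Within 1 Mb of either end of HFM1 the annotation holds 33 genes, of which 31 have a row. Of these 16 were listed at 0 in all libraries, and 8 were above 0 and not tested, with no library above 0.54 TPM. The 7 tested genes were HFM1, CDC7, ZNF644, TGFBR3, GLMN, RPAP2 and AL590094.1. No library had more than 17.03 TPM of any of them other than HFM1, so no other gene with a row in this stretch approached its level. RF00019, annotated as a miscellaneous RNA inside HFM1 on the opposite strand, has no row, and its level is not known. Of the 6 tested genes beside HFM1, 1 (ZNF644) was called higher and 0 lower relative to the median gene, against 11.0% and 10.4% of all tested rows. On the deposited scale 5 of the 6 were called lower and 0 higher, against 80.8% and 1.01% of all tested rows. The 5 include TGFBR3, which passed the filter through the siNC libraries, so its call is not read. GLMN, which encodes glomulin, a regulator of a ubiquitin ligase, had a log2 fold change of 0.065 (adjusted p = 0.626, limma). RPAP2, a phosphatase of the RNA polymerase II tail, had -0.081 (adjusted p = 0.730, limma). C1orf146, the SPO16 protein of meiotic crossovers, lies 813 kb away and was listed at 0 in all 6 libraries.

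**Figure D4:**
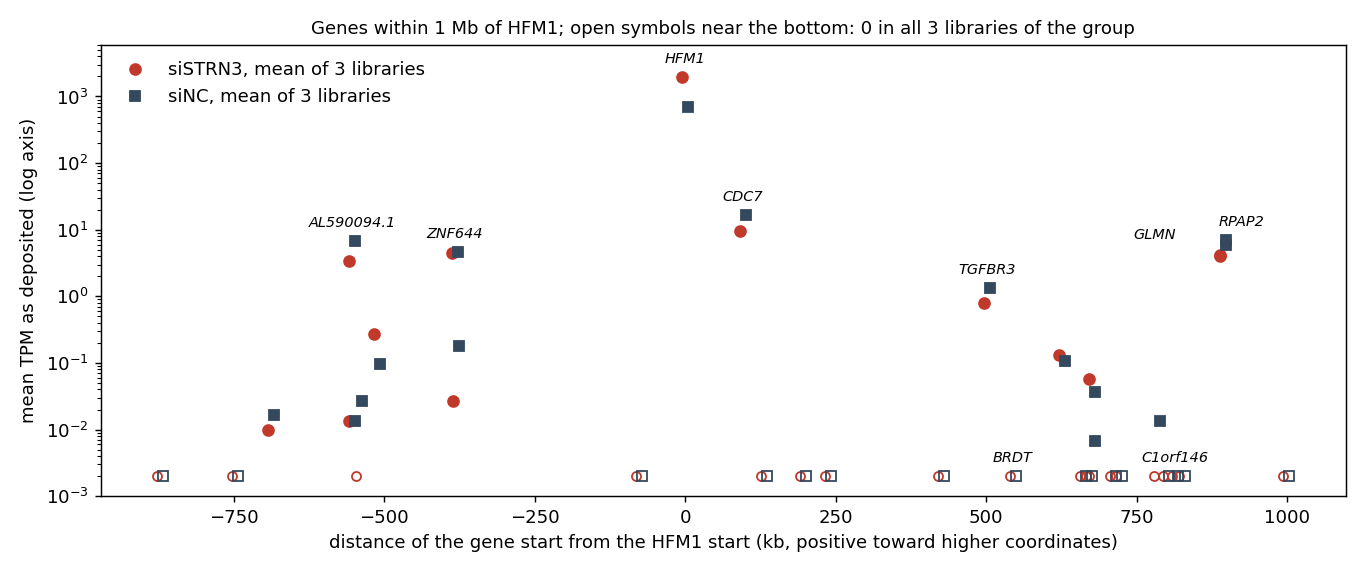
The x axis gives the distance of each gene's start from that of HFM1 in kb and the y axis, on a log scale, the mean TPM as deposited of 3 libraries, with circles for siSTRN3 and squares for siNC; open symbols near the bottom are genes at 0 in all 3 libraries of the group. HFM1, at 1944 TPM in the libraries labelled siSTRN3 and 688 TPM in those labelled siNC, stands alone above the neighbours drawn, which have at most 17.03 TPM in any library.

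Genes that work with HFM1 in meiosis were at low levels or listed at 0 in most cases. Of 40 rows for meiotic crossover and synapsis, HFM1 included, 12 were listed at 0 in all libraries and 18 were above 0 and not tested, with no library above 2.47 TPM. MSH4, which with MSH5 stabilises crossover intermediates, had at most 0.03 TPM in any library. MSH5 itself passed the filter. Its means were 6.39 ± 0.876 TPM in the libraries labelled siSTRN3 and 11.1 ± 1.34 TPM in those labelled siNC (SD, n = 3 each). Relative to the median gene MSH5 did not pass the test (-0.13, adjusted p = 0.465, limma), and on the deposited scale it stood at -0.71. Without HFM1 the list's rows summed to 124 to 131 TPM in the libraries labelled siSTRN3 and to 202 to 215 TPM in those labelled siNC. Of the 9 tested genes other than HFM1, 2 were called higher and 2 lower, where 11.0% and 10.4% of all tested rows were, with a median log2 fold change of 0.13, against -0.0063 over all tested rows. EXO1, a nuclease of mismatch repair and end resection, had 14.28, 14.40 and 14.74 TPM in the libraries labelled siSTRN3, against 20.05, 20.10 and 18.74 TPM in those labelled siNC. Relative to the median gene EXO1 was higher by 0.20 (adjusted p = 0.0261) and MND1, a cofactor of meiotic strand exchange, by 0.26 (adjusted p = 0.0493). CCNB1IP1, a ubiquitin ligase that acts in crossing over in mice, was lower, at -0.16 (adjusted p = 0.0254, all limma). Each of these 3 calls ended when any 1 of 5 or 6 libraries was left out, with adjusted p up to 0.140 in limma. Among protein-coding rows alone EXO1 and MND1 were not called (adjusted p = 0.0621 and 0.0517, limma). On the deposited scale both were called lower, EXO1 at -0.41 (adjusted p = 0.00023) and MND1 at -0.37 (adjusted p = 0.0026, both limma). There 7 of the 9 were called lower and 0 higher, against 80.8% and 1.01% of all tested rows.

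Other Ski2-like helicases did not share the level or the difference of HFM1. The 7 tested members had a median log2 fold change of 0.046, with 0 called higher and 1 lower, where 11.0% and 10.4% of all tested rows were. On the deposited scale 4 of the 7 were called lower, where 80.8% of all tested rows were, with a median of -0.56. HELQ, the DNA repair helicase of this family, had 3.38, 4.93 and 2.80 TPM in the libraries labelled siSTRN3, against 3.39, 3.70 and 4.24 TPM in those labelled siNC, and did not pass the test (0.47, adjusted p = 0.116, limma). SNRNP200, the helicase that unwinds U4 and U6 in the spliceosome, was lower by a log2 fold change of -0.17 (adjusted p = 0.0228, limma), a call that ended when any 1 of 4 libraries was left out.

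The 14 partners and substrates of CDC7 all passed the filter, and 5 were called higher and 1 lower, where 11.0% and 10.4% of all tested rows were, with a median log2 fold change of 0.18. DBF4, which activates CDC7, had 7.91, 7.98 and 7.92 TPM in the libraries labelled siSTRN3, against 8.78, 8.81 and 8.31 TPM in those labelled siNC. The deposited values were thus slightly lower in the libraries labelled siSTRN3, and relative to the median gene DBF4 was higher by 0.47 (adjusted p = 0.0028, limma). CLSPN, the claspin mediator of the replication checkpoint, was higher by 0.43 (adjusted p = 0.0120), and TOPBP1, which activates ATR and helps load CDC45, by 0.37 (adjusted p = 0.0130, both limma). MCM7, a subunit of the replicative helicase, was lower, at -0.20 (adjusted p = 0.0083, limma), with 204.34, 214.30 and 211.67 TPM in the libraries labelled siSTRN3, against 381.16, 374.64 and 378.67 TPM in those labelled siNC. The calls of DBF4, CLSPN and MCM7 held without any single library, and that of TOPBP1 ended without siNC replicate 1 (adjusted p = 0.0504, limma). On the deposited scale 0 of the 14 were called higher and 11 lower, where 80.8% of all tested rows were lower, and DBF4, CLSPN and TOPBP1 stood at -0.11, -0.16 and -0.23.

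Of 21 genes of the TGF-beta superfamily beside TGFBR3, receptors and ligands with the binding proteins ARRB2 and GIPC1, 17 were tested, with a median log2 fold change of -0.012, and 1 was called higher and 1 lower, where 11.0% and 10.4% of all tested rows were. ARRB2, the arrestin that draws TGFBR3 from the cell surface, was called higher, at 0.26 (adjusted p = 0.0430), and BMPR2, a type II receptor for bone morphogenetic proteins, lower, at -0.28 (adjusted p = 0.0284, both limma), and both calls ended when any 1 of the 6 libraries was left out. ARRB2 stood at -0.33 on the deposited scale. There 0 of the 17 were called higher and 14 lower, where 80.8% of all tested rows were lower. The 14 include BMPR1B, which passed the filter through the siNC libraries, so its call is not read. TGFBR2, the type II receptor to which betaglycan hands its ligand, had 0.02 to 0.05 TPM in every library. TGFBR1 had 4.26, 5.14 and 3.96 TPM in the libraries labelled siSTRN3, against 3.67, 5.36 and 5.23 TPM in those labelled siNC, and did not pass the test (0.46, adjusted p = 0.0677, limma).

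Of 9 genes of H3K9 methylation around ZNF644, 1 was called higher and 3 lower, where 11.0% and 10.4% of all tested rows were, with a median log2 fold change of -0.031. All 9 were called lower on the deposited scale, where 80.8% of all tested rows were. The methyltransferase EHMT2 was at -0.25 (adjusted p = 0.0243), its zinc finger partner WIZ at -0.25 (adjusted p = 0.0268) and the methyltransferase SETDB1 at -0.29 (adjusted p = 0.0249), while CBX5, which reads the mark, was at 0.19 (adjusted p = 0.0291, all limma) and at -0.45 on the deposited scale. Each of these 4 calls ended when any 1 of 4 to 6 libraries was left out. EHMT1 did not pass the test (-0.026, adjusted p = 0.838, limma). Of the BET proteins beside BRDT, neither BRD3 (-0.18, adjusted p = 0.449) nor BRD2 (-0.019, adjusted p = 0.739, both limma) passed the test.

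**Figure D5:**
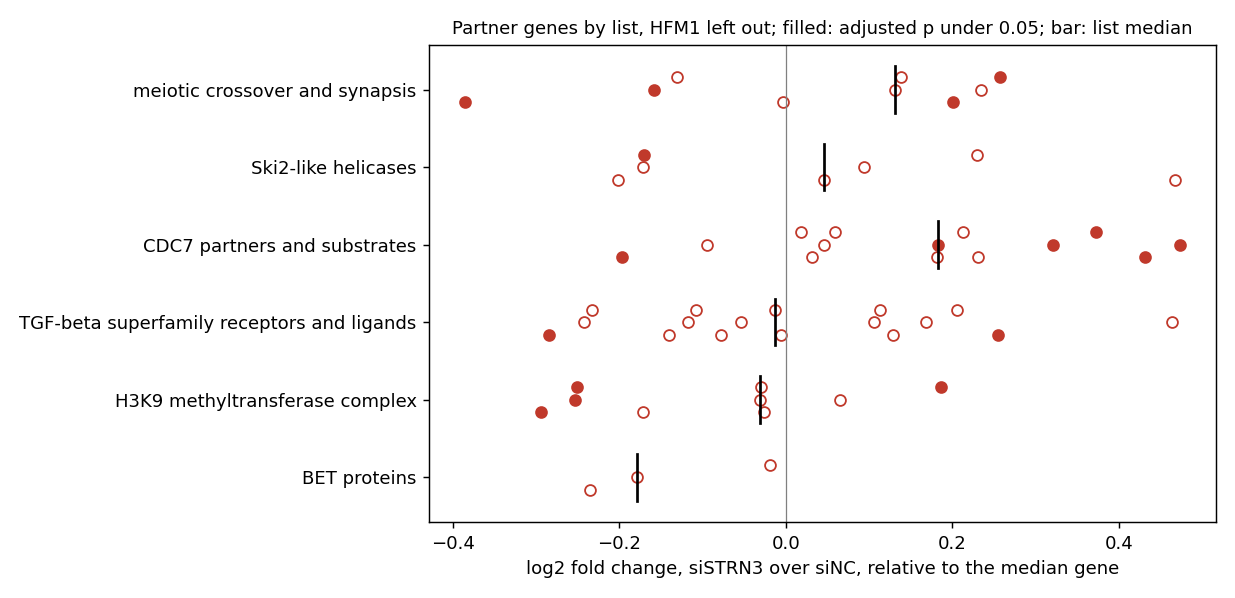
The x axis gives the log2 fold change, siSTRN3 over siNC as labelled, relative to the median gene, for each tested gene of 6 lists with HFM1 left out; filled points passed an adjusted p under 0.05 and bars are list medians. All 6 medians lie between -0.18 and 0.18, and the points are offset vertically only to be seen apart.

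Markers of germ cells, the known site of HFM1, were at or near 0. Of 14 germ cell markers, 9 were listed at 0 in all libraries, DAZL, MAEL and SYCP1 among them, and DDX4 had at most 0.03 TPM. The list summed to 0.09 to 0.17 TPM in the libraries labelled siSTRN3 and to 0.20 to 0.28 TPM in those labelled siNC. Of 11 epithelial and gastric markers 5 were listed at 0 in all libraries, including TFF1 and GKN1, and no library had more than 1.08 TPM of any of them, so the defining genes of gastric epithelium were at or near 0 under the gastric label. Among mesenchymal-type markers VIM had 1753, 1718 and 1741 TPM in the libraries labelled siSTRN3, against 2984, 2992 and 3058 TPM in those labelled siNC. Relative to the median gene VIM was at -0.14 (adjusted p = 0.0088, and 0.0747 without the trend, both limma). FN1 had 3.28 to 7.78 TPM and CDH2 at most 0.11 TPM over all libraries. Leukocyte markers summed to 1.27 to 1.90 TPM in the libraries labelled siSTRN3 and to 1.55 to 2.30 TPM in those labelled siNC, and no endothelial marker had more than 0.02 TPM. Fibroblast markers summed to 108 to 122 TPM in the libraries labelled siSTRN3 and to 136 to 141 TPM in those labelled siNC. Of these, the collagen gene COL1A1 was called higher, at 0.44 (adjusted p = 0.0019) and -0.21 on the deposited scale, and COL1A2 lower, at -0.31 (adjusted p = 0.0271, both limma), a call that ended when any 1 of the 6 libraries was left out, and the part of these markers in the HFM1 values was not tested.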

How the data were processed

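Total RNA of HGC-27 cells was extracted with TRIzol and sequenced on an Illumina NovaSeq instrument, with 3 libraries per siRNA, per the labels' protocols. Whether messenger RNA was enriched or ribosomal RNA depleted is not stated in those protocols. The authors deposited 58233 gene rows and 2 rows without a gene, with TPM values per library, per the file headers, although the file's name gives FPKM. All values of a library share one total in TPM, and an RNA class with a larger part of it leaves less for the rest. The authors also deposited raw and adjusted p-values (DESeq2, by the file's name) and a mark for significance. HISAT2, RSEM and Cufflinks, with no version, and the build GRCh38.p10 are in the submitters' processing notes; how strand and multiply mapped reads were handled is not stated there.

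The members and the gene lists were chosen with earlier results of these data known. The planned test on FPKM was run on the TPM values instead. The 13004 rows that reached 1 TPM in 3 or more libraries were fitted with limma 3.58.1 (trend, R 4.3.3) on log2(TPM + 1), with no block and Benjamini-Hochberg adjustment at 0.05, after each library was rescaled to the same median over these rows; a fold change on this scale understates that of low genes. HFM1 was described with no test. The fit was tested on simulated data. Annotation and transcripts came from GENCODE release 29 by unique symbol, and table lengths equalled the longest annotated transcript in 94.8% of matched rows. Transcripts were searched with BLAST+ 2.17.0 (blastn). The genes named are the members, STRN3, FEN1 as the gene that matched HFM1, the structural RNAs, the 5 most like HFM1 by each of 2 correlations among rows of at least 5 TPM, and up to 4 called members of each list, some of which are not reported here. Where the text gives another gene, it was chosen as a known partner or neighbour of a member. Alternatives were the deposited scale, protein-coding rows alone, a pseudocount of 0.1, no filter, no trend, a replicate block and each library left out in turn. Scripts ran in Python 3.11.15 with numpy 2.4.6, pandas 2.3.3 and, for plots, matplotlib 3.10.9.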

Additional observations from a re-analysis of the deposited data

How the results depend on the processing

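Relative to the median gene 2772 of 13004 rows were called, 1424 higher and 1348 lower. The count was 10643 on the deposited scale (131 higher and 10512 lower), 3062 among protein-coding rows alone (1080 higher and 1982 lower), and between 1485 and 2128 when a library was left out. The HFM1 difference was 1.46 on the deposited scale and between 1.83 and 2.46 without single libraries. CDC7 passed the threshold on the deposited scale, at -0.74, and among protein-coding rows alone, at -0.19, and lay between -0.16 and -0.10 without single libraries, never called. TGFBR3 was at -0.38 on the deposited scale, where no call is read from it, and lay between -0.13 and 0.017 without single libraries, above 0 at 0.0082 without siSTRN3 replicate 2 and at 0.017 without siNC replicate 2. ZNF644 was at -0.056 on the deposited scale, missed the threshold with no filter on low values at 0.48 (adjusted p = 0.0706, limma), and lay between 0.39 and 0.53 without single libraries. For the named genes of the lists every alternative was added after seeing the data, and on the deposited scale those called higher relative to the median gene stood at -0.41 for EXO1, -0.37 for MND1, -0.11 for DBF4, -0.16 for CLSPN, -0.23 for TOPBP1, -0.33 for ARRB2, -0.45 for CBX5 and -0.21 for COL1A1. The difference in the log2 ratio of HFM1 to structural RNA, 0.12 with RNA5-8S5, was 0.78 with RN7SL1, 0.94 with RN7SL2 and 1.06 with MT-RNR2. Without single libraries, an alternative chosen after seeing the data, it lay between -0.16 and 0.45, at -0.15 without siSTRN3 replicate 2. Of the 5 genes most like HFM1 over all libraries, 0 were among the 5 by deviations from the group means. The cause of these changes was not tested.

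The replicate numbers do not pair the libraries: the correlations of deviations between same-numbered libraries were 0.057, -0.021 and -0.080. A replicate block gave 1745 calls and no other call among the neighbours, with adjusted p of 0.199 for CDC7, 0.0468 for ZNF644 and 0.834 for TGFBR3 (limma). Among the called genes of the lists it ended 9 calls, those of CCNB1IP1, EXO1, BMPR2, ARRB2, EHMT2, SETDB1, WIZ, CBX5 and COL1A2 (adjusted p 0.0568 to 0.0882, limma). TPM keeps no depth, so counting error cannot be set beside any of these values, and the 0 of BRDT carries no upper limit.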
